A study of Mus musculus with 74 samples.

Results

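Gm14326, Gm14391, Gm14393 and Gm14418 are 4 mouse KRAB zinc-finger proteins (KRAB-ZFPs) encoded in a cluster of related genes near the end of chromosome 2. Their ChIP-seq experiments were chosen by name from a table of binding sites for 67 tagged KRAB-ZFPs, and the labels give all 4 the loosest pair of limits used in F9 cells, a MACS p-value under 1e-05 and an enrichment over 10. Together they hold 1154 of the 53011 peaks with a labelled sample (2.177%). Gm14326 had 519 peaks, Gm14391 had 382, Gm14393 had 121 and Gm14418 had 132.

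KRAB-ZFPs are a large family of DNA-binding repressors. Their arrays of zinc fingers read long DNA sequences, and their KRAB domain recruits KAP1 (also called TRIM28), a scaffold for H3K9 methyltransferases and other silencing enzymes. Many members bind retrotransposons and help to keep them silent in early embryonic cells.

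The study expressed tagged KRAB-ZFPs in cultured mouse cells and mapped their binding with antibodies to the tag. Each of the 4 proteins carried a C-terminal triple HA tag (C-3XHA) and was overexpressed in F9 embryonal carcinoma (EC) cells, a cell line from a mouse teratocarcinoma. Codon-optimised open reading frames were used in a pTRE-puromycin vector, and puromycin-resistant clones were pooled, so neither the endogenous protein nor its normal level was measured. Cells were cross-linked with formaldehyde, chromatin was precipitated with the HA antibody ab9110, and reads were aligned with Bowtie2. The control was a sample labelled Gm14296_control rather than the input DNA or plain HA or FLAG controls of other ChIPs. A further 6 C-3XHA ChIPs in F9 EC cells, of EtOHi1, Gm14406, Gm14410, Gm14412, Gm14436 and Gm6710, used the same control with stricter limits and gave 9324 peaks. Each protein was represented by 1 sample without a replicate, and the sequencing depth of the libraries is unknown from the peak table. All intervals below are 95% Wilson intervals and cover counting error only.

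Gm14391 had a stretch of 19 bases in 51 of its 382 peaks. Of these 51, 17 were used to fit the stretch and 16 lay in copies of 1 repeated sequence, with 1 peak in both. Among peaks not used for the fit and outside that repeated sequence, 19 of 346 held it (5.49%). Stretches fitted in the same way to Gm14326, Gm14393 and Gm14418 did not recur in their peaks on other chromosomes. The stretch was searched for by fitting a position weight matrix to the 20 highest-scoring Gm14391 peaks on odd-numbered chromosomes, in windows of 200 bp centred on the summit with runs of A or T masked. Its consensus was CTTCTNCTCCCNNGAACNC (GNGTTCNNGGGAGNAGAAG on the other strand), where N marks positions at which no base reached 60%. Both strands were searched, and a match was a score exceeded by about 1% of 25584 windows spaced every 100 kb along the genome. The fit was added after values of these data had been seen. The following sites are shown because they carry this stretch in peaks used for the fit, with the matched 19 bases in capitals and 12 bases on either side, each on the mm9 assembly:
Pias3 intron, chr3:96500528-96500570, minus strand: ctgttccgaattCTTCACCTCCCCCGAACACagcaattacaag
Enah coding exon, chr1:183852316-183852358, minus strand: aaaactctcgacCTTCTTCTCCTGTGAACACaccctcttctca
Arid2 intron, chr15:96163892-96163934, plus strand: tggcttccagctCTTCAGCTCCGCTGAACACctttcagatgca
Def6 intron, chr17:28354976-28355018, minus strand: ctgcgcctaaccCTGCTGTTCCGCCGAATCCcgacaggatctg

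The next sites were in peaks that were not used for the fit and lay outside the largest group of similar peaks, with the match again in capitals:
Tiam1 intron, chr16:89977486-89977528, minus strand: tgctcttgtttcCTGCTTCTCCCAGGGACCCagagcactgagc
between genes, chr2:178591666-178591708, minus strand: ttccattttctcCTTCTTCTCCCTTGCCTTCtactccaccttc
BC068157 coding exon, chr8:4213257-4213299, minus strand: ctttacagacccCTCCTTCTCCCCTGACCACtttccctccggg
between genes, chr4:10759235-10759277, plus strand: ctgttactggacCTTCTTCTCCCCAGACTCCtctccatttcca

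In a group of 17 Gm14391 peaks in copies of that repeated sequence, 16 held the stretch. The sites in 3 of them, on 3 chromosomes, were identical over all 43 bases shown, and the peak in Smyd4 was 1 of the 20 used for the fit:
between genes, chrX:31982771-31982813, plus strand: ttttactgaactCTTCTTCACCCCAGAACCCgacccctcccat
Large intron, chr8:75387024-75387066, plus strand: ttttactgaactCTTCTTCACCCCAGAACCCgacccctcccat
Smyd4 intron, chr11:75170851-75170893, minus strand: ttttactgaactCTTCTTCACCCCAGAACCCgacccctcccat

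A second sequence feature was present in all 4 ChIPs, least often in Gm14391 (75.9% of peaks, against 81.8 to 89.3% in the others). Read along the strand on which it is A, an uninterrupted run of A lay within 200 bp 5′ of the summit of most peaks. The sequences below show this arrangement in the 2 highest-scoring intronic or intergenic peaks of each ChIP with a run of at least 12 A. The longest such run is in capitals, the first 10 bases precede it, and the summit lies 20 bases before the last base:
Gm14326, Cdc14a intron, chr3:116023038-116023155, plus strand: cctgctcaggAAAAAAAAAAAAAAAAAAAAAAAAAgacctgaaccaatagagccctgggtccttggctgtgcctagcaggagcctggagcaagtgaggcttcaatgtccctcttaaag
Gm14326, Rtf1 intron, chr2:119552011-119552186, plus strand: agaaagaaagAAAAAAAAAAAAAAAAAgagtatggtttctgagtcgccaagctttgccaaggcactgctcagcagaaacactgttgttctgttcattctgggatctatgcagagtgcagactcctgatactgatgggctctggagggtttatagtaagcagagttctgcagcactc
Gm14391, Gm14243 intron, chr2:161022839-161022934, minus strand: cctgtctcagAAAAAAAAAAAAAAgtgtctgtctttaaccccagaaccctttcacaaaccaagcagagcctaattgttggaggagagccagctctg
Gm14391, 2610021K21Rik intron, chr12:101113182-101113295, plus strand: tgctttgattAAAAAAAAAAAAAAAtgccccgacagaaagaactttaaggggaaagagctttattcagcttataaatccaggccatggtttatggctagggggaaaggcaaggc
Gm14393, between genes, chr8:64651566-64651674, minus strand: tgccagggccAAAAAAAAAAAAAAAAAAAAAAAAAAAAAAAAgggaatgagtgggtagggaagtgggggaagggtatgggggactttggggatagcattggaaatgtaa
Gm14393, between genes, chr13:75800610-75800776, plus strand: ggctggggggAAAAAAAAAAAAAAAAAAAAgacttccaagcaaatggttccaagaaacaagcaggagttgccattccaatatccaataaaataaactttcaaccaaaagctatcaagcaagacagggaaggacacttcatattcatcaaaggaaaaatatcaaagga
Gm14418, Col25a1 intron, chr3:130051899-130052061, minus strand: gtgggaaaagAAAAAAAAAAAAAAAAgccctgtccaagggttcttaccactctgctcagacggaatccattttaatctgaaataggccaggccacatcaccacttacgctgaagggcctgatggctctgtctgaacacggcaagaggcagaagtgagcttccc
Gm14418, between genes, chr1:155406053-155406161, minus strand: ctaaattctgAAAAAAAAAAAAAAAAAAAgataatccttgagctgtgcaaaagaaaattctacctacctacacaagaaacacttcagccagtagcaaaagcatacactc

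The peaks of the 4 ChIPs were close to the limits at which they were called. MACS gives each peak a score, which is −10 times the log10 of its p-value, so the limit of the labels is a score of 50. The lowest score was 50.01 in Gm14326, 50.07 in Gm14391, 50.07 in Gm14393 and 50.02 in Gm14418, and the peaks just outside the limit were not analysed here. The median score was 61.7 in Gm14326, 58.4 in Gm14391, 54.7 in Gm14393 and 56.1 in Gm14418. The share of peaks with a score under 60 was 44.1% in Gm14326, 56.5% in Gm14391, 74.4% in Gm14393 and 68.2% in Gm14418. The lower bound of the scores follows from the limits, and these values were not tested. The study's methods state that limits were loosened where stricter ones gave too few peaks. The choice of limits therefore depended on how many peaks passed the stricter ones. A p under 1e-10 with an enrichment over 10 was reached by 12 Gm14326, 30 Gm14391, 0 Gm14393 and 0 Gm14418 peaks.

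The median fold enrichment was 11.6 for Gm14326, 11.8 for Gm14391, 13.8 for Gm14393 and 11.7 for Gm14418. A peak held a median of 14 sequence tags in Gm14326, 16 in Gm14391, 17 in Gm14393 and 13 in Gm14418, and the median called width was 231, 240, 214 and 235.5 bp in the same order. In the 6 other ChIPs with this control, whose limits were stricter, the median tags per peak ranged from 21 in Gm6710 to 94 in Gm14412.

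MACS also estimates a false discovery rate (FDR) for each peak by exchanging the ChIP and its control. The deposited FDR was 100% for all 121 Gm14393 peaks and all 132 Gm14418 peaks. It was 100% for 488 Gm14326 peaks (94.0%), and the lowest value in that ChIP was 98.62%. In Gm14391 it was 100% for 343 peaks (89.8%) and under 5% for 13. None of the 9324 peaks of the 6 other ChIPs had an FDR of 100%.

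**Figure D1:**
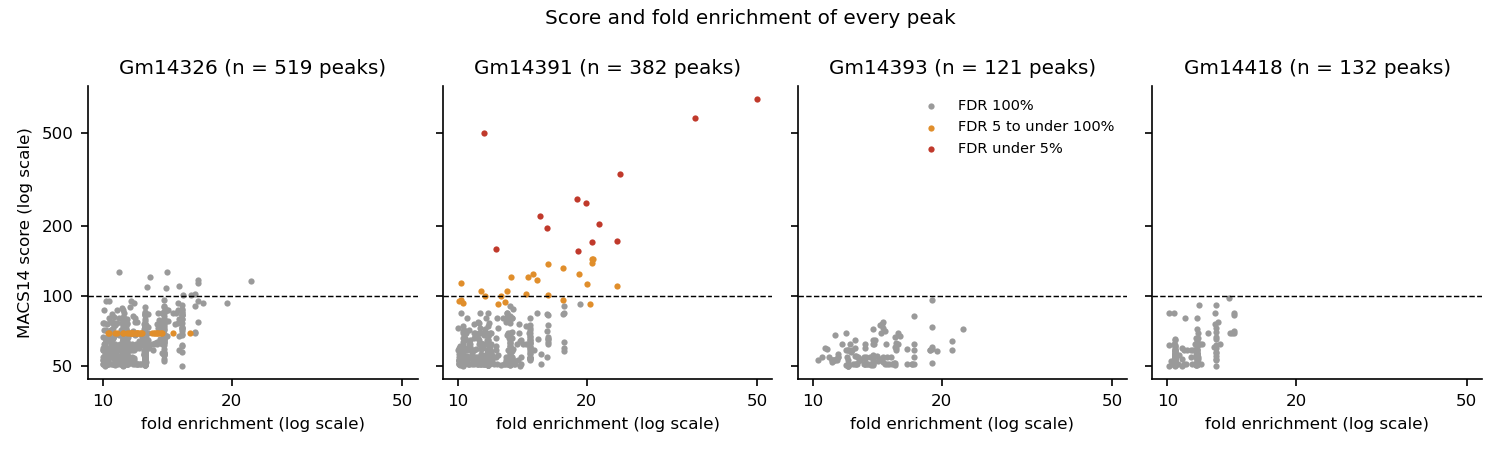
Score (vertical, log scale) against fold enrichment (horizontal, log scale) of every peak of the 4 ChIPs, coloured by deposited FDR, with a dashed line at a score of 100. Only Gm14391 has peaks with an FDR under 5%, 13 in number, and it has 30 of the peaks above the line against 12 for Gm14326 and 0 for Gm14393 and Gm14418.

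The high end of Gm14391 stood apart. Its strongest peak had a score of 699.37, a fold enrichment of 50.07 and 101 tags, and lay in an intron of the Gm14243 gene at chr2:161022759-161022958. The second, with a score of 578.99, a fold enrichment of 35.71 and 113 tags, lay 158 bp from the transcript start of Pias3, which encodes an inhibitor of STAT signalling. The third was in an intron of 2610021K21Rik and had the most tags, 252, but a fold enrichment of 11.53. The fourth was in a coding exon of Enah, an actin regulator, with a score of 333.92. The fifth was the strongest of the repeated group, on chromosome 18, with a score of 260.03.

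The other 3 ChIPs had no such peaks. In Gm14326 the highest score was 126.2, reached by 2 peaks with 27 tags each. One lay between genes 35972 bp from the start of Pou2af1, and the other in an intron of Cdc14a, which encodes a dual-specificity phosphatase. The next were a peak 253 bp from the start of Rtf1, a component of the PAF1 transcription elongation complex (score 120.03), an intergenic peak on chromosome 1 (117.26) and an intronic peak in Lsamp, a neural adhesion molecule (115.51). All 5 had an FDR of 100%.

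In Gm14393 the highest score was 96.09, for an intergenic peak on chromosome 8 whose 24-base words had a median of 56 genomic copies. It was followed by an intergenic peak on chromosome 13 (81.91), a peak 4753 bp from the start of Mtch2 (77.05) and intronic peaks of Ncor1, a nuclear receptor corepressor (75.67), and Nrbp1 (75.19). In Gm14418 the highest score was 97.96, in an intron of the collagen gene Col25a1. Next came intronic peaks in 6820408C15Rik (91.24) and Txndc11 (84.47), and peaks between genes 9229 bp from the start of Npl (90.93) and 22207 bp from the start of Dlc1 (84.47). No score in either ChIP passed 100.

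The 19-base stretch of Gm14391 recurred in peaks that had no part in the fit. It was in 17 of the 20 peaks used for the fit. On the even-numbered chromosomes and X, which were held out, it was in 23 of 172 windows (13.4%, interval 9.08 to 19.3). It was in 1.05% of windows 5 kb to either side of Gm14391 summits (interval 0.532 to 2.05) and in 0.997% of the evenly spaced windows. Leaving out the repeated group, 14 of 163 held-out windows had a match (8.59%, interval 5.19 to 13.9). Over all chromosomes, 19 of the 346 windows outside the group and not used for the fit had one (5.49%, interval 3.54 to 8.42).

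The stretch was in 8 of the 20 held-out peaks with the highest scores (40%, interval 21.9 to 61.3) and 15 of the other 152 (9.87%, interval 6.07 to 15.6). Of those 8, 5 were in the repeated group, a copy of which was used for the fit. Without the group the values were 3 of 15 (20%, interval 7.05 to 45.2) and 11 of 148 (7.43%, interval 4.20 to 12.8), whose intervals overlapped. Of the 23 held-out matches, 19 were centred within 50 bp of the summit, at a median of 21.5 bp. Outside the repeated group 10 of 14 were, also at a median of 21.5 bp, and this position was not tested. Of the 30 Gm14391 peaks with a score over 100, 21 had a match, as did 10 of the 13 with an FDR under 5%. Most of these were used for the fit. Among peaks not used for it, 5 of 11 with a score over 100 had a match (45.5%, interval 21.3 to 72), of which 3 were in the repeated group, and 2 of 5 with an FDR under 5%. Neither the strongest peak, at Gm14243, nor the third, at 2610021K21Rik, reached the score of a match. The window at Gm14243 did hold a site 36.5 bp from the summit that had the same base as the repeated group's site at 15 of 19 positions, looked up after its sequence was seen.

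In the peaks of the other ChIPs the Gm14391 matrix matched 2 of 519 windows of Gm14326 (0.385%), 0 of 121 of Gm14393 (interval 0 to 3.08%) and 2 of 132 of Gm14418 (1.52%). Among the 6 others with the same control it matched 2.83% of Gm14436 windows (interval 1.30 to 6.04), 2.78% of Gm6710 (1.60 to 4.80) and 2.15% of Gm14412 (1.68 to 2.76), above the 0.997% of the evenly spaced windows, and 0.0176 to 1.49% of the remaining ChIPs. A matrix of 15 bases matched 143 of 2787 Gm14412 windows (5.13%, interval 4.37 to 6.01), 130 of them within 50 bp of the summit, against 10.5% of the held-out Gm14391 windows and 5.52% of those outside the repeated group (interval 2.93 to 10.2). The Gm14412 interval treats its windows as independent, but 65.3% of them were in sequence with at least 10 genomic copies. Whether the 143 matches lie in copies of 1 sequence was not tested.

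Matrices fitted in the same way to the other 3 ChIPs did not recur on held-out chromosomes. That of Gm14326 was in 4 of the 20 peaks it was fitted to and in 2 of 238 held-out windows (0.840%, interval 0.231 to 3.01). That of Gm14393 was in 5 of 20 and in 0 of 59 held-out windows (interval 0 to 6.11%). That of Gm14418 was in 9 of 20 and in 1 of 57 (1.75%, interval 0.310 to 9.29). With 59 and 57 held-out peaks, a stretch in a few percent of Gm14393 or Gm14418 peaks would not have been detectable.

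**Figure D2:**
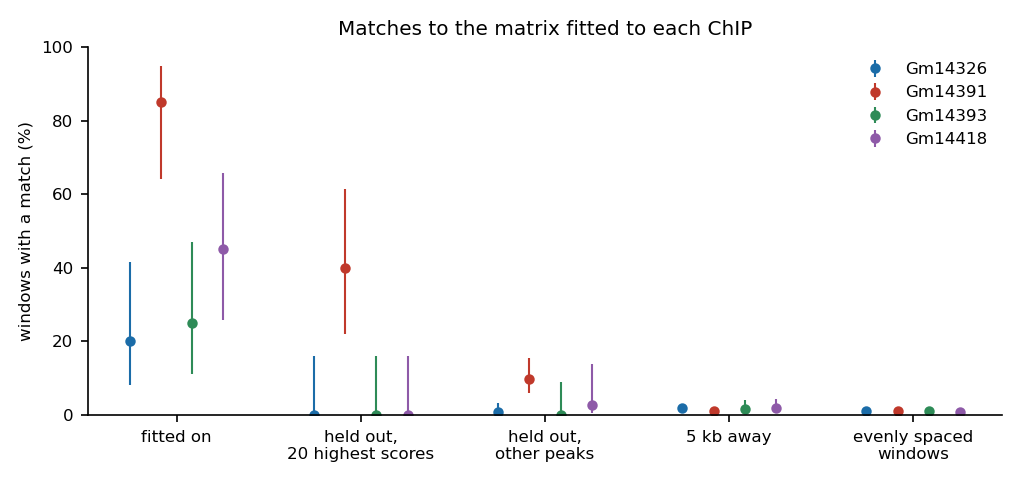
Share of 200 bp windows (vertical, percent) that match the matrix fitted to each ChIP, in the 20 peaks it was fitted to, in held-out peaks, 5 kb from the summits and in evenly spaced windows, with 95% Wilson intervals as bars. Held-out windows of Gm14391 lie above those 5 kb away, at 40% for the 20 highest scores (20% without the repeated group) and 9.87% for the others, whereas those of the other 3 ChIPs lie between 0 and 2.70%.

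Single words of 8 bases were ranked on odd-numbered chromosomes and measured on the held-out ones, with their reverse complements. The leading pair for Gm14391, GGTGAAGA and ACCCCAGA, parts of the repeated group's sequence in the sites shown above, were each in 12 of 172 held-out windows (6.98%, interval 4.04 to 11.8), against 0.776% and 0.913% of evenly spaced windows. In both cases 9 of the 12 windows were in the repeated group, and outside it each word was in 3 of 163 (1.84%, interval 0.628 to 5.27), so the words are not separate from that group. The third, AAAACCTG, was in 1.16% against 1.20%.

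The leading word of Gm14326 was AAAAAAAG, in 65 of 238 held-out windows (27.3%, interval 22.0 to 33.3) against 5.12%. Its next words, AGACAGGG and TCTCTCCA, were in 2.52% and 3.78% against 2.18% and 2.31%. For Gm14393 the words ACCATTCC and AAGGATTA were in 0 of 59 held-out windows and CTATACAG was in 1. For Gm14418 the words ACAAGGAT, AACAGACC and GCAGCACC were in 0 of 57.

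The runs of A had a fixed side in all 4 ChIPs. They were examined because the leading Gm14326 word was part of such a run, so they were chosen after their values were seen and were not tested. A run of 8 or more A was centred within 200 bp 5′ of the summit in 447 of 519 Gm14326 peaks (86.1%, interval 82.9 to 88.8), 290 of 382 Gm14391 peaks (75.9%, 71.4 to 79.9), 108 of 121 Gm14393 peaks (89.3%, 82.5 to 93.6) and 108 of 132 Gm14418 peaks (81.8%, 74.4 to 87.5). Over the genome a run was this near on that side of 8.31% of the centres of evenly spaced windows. On the 3′ side the share was 4.05% in Gm14326, 4.97% in Gm14391, 4.96% in Gm14393 and 4.55% in Gm14418, against 8.65% of the evenly spaced windows. Windows 5 kb from the summits had a run on the 5′ side in 7.22 to 12%.

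The longest run on the 5′ side of a peak had a median length of 15 bases in Gm14326, 16 in Gm14391, 16 in Gm14393 and 17 in Gm14418, and the longest of all had 52. Its centre lay at a median of 110.5 bp before the summit in Gm14326, 124.5 bp in Gm14391, 118.5 bp in Gm14393 and 101.8 bp in Gm14418. Most runs therefore fell outside the 200 bp windows, of which 38.5, 26.7, 39.7 and 46.2% held a run on either strand in the same order of ChIPs, against 8.35% of the evenly spaced windows.

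**Figure D3:**
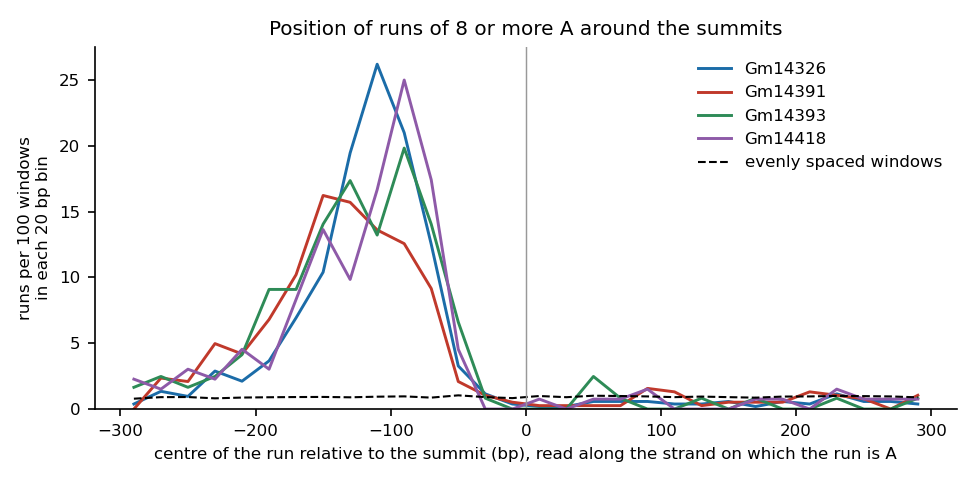
Number of runs of 8 or more A per 100 peaks (vertical) in bins of 20 bp by the distance of their centre from the summit (horizontal, bp), read along the strand on which the run is A, for the 4 ChIPs and for evenly spaced windows (dashed). All 4 curves peak before the summit, with medians of the longest run 101.8 to 124.5 bp away, and lie near or under the dashed line after it.

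In Gm14326 the runs were 5′ of 90.1% of peaks with a score at or above the median and 81.6% of those under it. In Gm14393 the values were 90.9 and 87.3% and in Gm14418 84.8 and 78.8%. In Gm14391 the order was the opposite, 69.7% at or above the median and 82.4% under it. Of the 30 Gm14391 peaks with a score over 100, 9 had a run (30%, interval 16.7 to 47.9), against 281 of the other 352 (79.8%, interval 75.3 to 83.7).

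In Gm14391 the runs and the 19-base stretch were mostly in different peaks. A run lay 5′ of 16 of the 51 peaks with the stretch (31.4%, interval 20.3 to 45) and of 274 of the 331 without it (82.8%, interval 78.3 to 86.5). On the held-out chromosomes alone the values were 7 of 23 (30.4%) and 119 of 149 (79.9%). Of those 23 peaks, 9 were in the repeated group, in which a run lay 5′ of 4 of 17 peaks (23.5%, interval 9.56 to 47.3). These copies are not independent, and peaks with the stretch outside the group were not counted separately. Only 57 of the 382 peaks (14.9%) had neither.

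Runs on this side were also found in other ChIPs of the series. Ranked by the share of peaks with a run 5′ of the summit, Gm14393 was 3rd, Gm14326 6th, Gm14418 9th and Gm14391 12th of 67 ChIPs. Among the 6 others with the Gm14296 control the share was 92.1% in Gm6710 and 76.4% in Gm14436, and 3.52 to 10.4% in the remaining ChIPs. The 30 ChIPs with an HA control ranged from 0 to 87.4% (median 48.3%) and the 18 with a FLAG control from 2.08 to 93.0% (median 16.4%).

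Among the F9 ChIPs other than the 4, the 9 called at the loosest limits had shares of 48 to 85% (median 60%), the 11 at intermediate limits a median of 35.9% and the 34 at the strictest limits a median of 15.5%. The 9 ChIPs in ES cells, with input as control, had 0.923 to 6.29%. According to the study's methods the F9 libraries were made with a DNA SMART kit and the ES cell libraries with Illumina adapters, so kit, cell line and control cannot be told apart here. Their part in the runs was not tested.

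**Figure D4:**
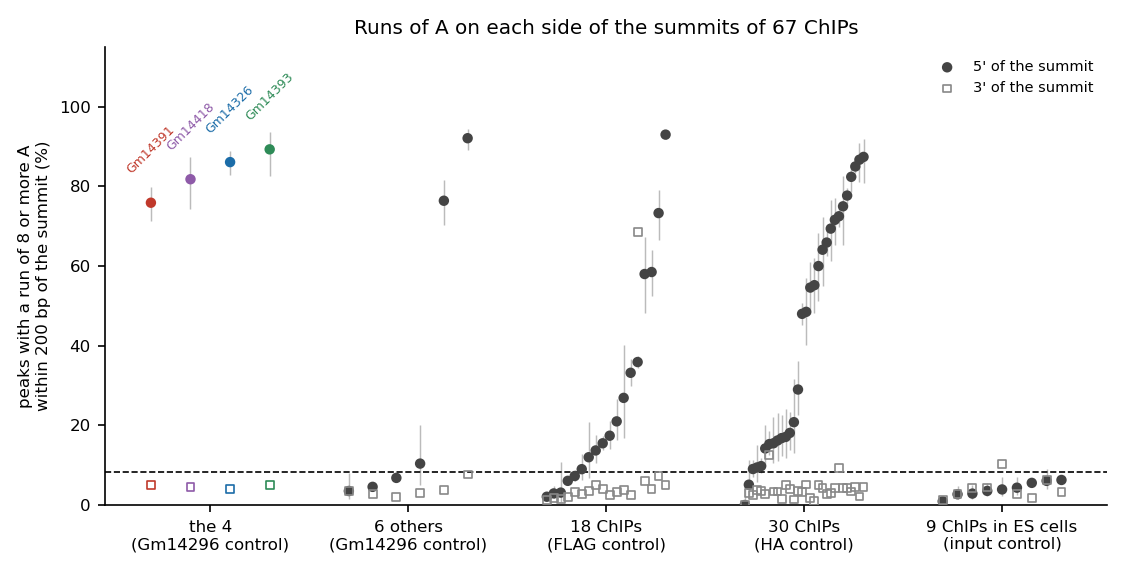
Share of peaks (vertical, percent) with a run of 8 or more A within 200 bp 5′ (filled circles, with 95% Wilson intervals) or 3′ (open squares) of the summit in each of 67 ChIPs, grouped by control, with the 5′ share of evenly spaced windows dashed. The 4 ChIPs lie between 75.9 and 89.3% on the 5′ side and under 5% on the 3′ side, and the ES cell ChIPs lie at or under 6.29% on the 5′ side.

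Most peaks did not resemble another peak of the same ChIP in sequence. Peaks were grouped when their windows aligned over at least 80 bp. Such groups took in 15.6% of Gm14326 peaks, 15.4% of Gm14391, 2.48% of Gm14393 and 9.85% of Gm14418. A larger set of peaks offers more partners, so these shares cannot be compared between ChIPs. Evenly spaced windows were not grouped, so the shares have no genomic reference. The group of 17 Gm14391 peaks was spread over 11 chromosomes. Its windows had a median of 59 genomic copies, and the 14 that aligned to the strongest member were a median of 99.2% identical to it. Their summits fell within 33 bp of the same point of the shared sequence, and 16 of the 17 held the 19-base stretch. Scores in the group ran from 50.8 to 260.03, with 4 over 100.

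The largest group of Gm14326 had 16 peaks on 12 chromosomes, with scores of 50.8 to 87.16, a median identity of 84.4% and summits spread from 37 bp before to 97 bp after that of the strongest member. Another group of 11 Gm14326 peaks, named here after its values were seen, had a median of 856 genomic copies and scores up to 114, and none of its windows held a run of A or T. The largest groups of Gm14393 and Gm14418 had 3 and 4 peaks. No repeat annotation of this assembly was used here, so the groups are described by copy number and not by repeat family.

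None of the 4 ChIPs had a larger share of repeated sequence than the evenly spaced windows. Windows whose 24-base words had a median of at least 10 copies made up 10.0% of Gm14326 (interval 7.72 to 12.9), 11.5% of Gm14391 (8.69 to 15.1), 4.96% of Gm14393 (2.29 to 10.4) and 9.85% of Gm14418 (5.85 to 16.1), against 13.2% of the evenly spaced windows. Among the 6 others this share was 91.6% in Gm14406, 80.3% in Gm14410 and 65.3% in Gm14412, but 9.28% in Gm6710, 6.13% in Gm14436 and 2.99% in EtOHi1. The mean was 9.09 ± 2.85% (SD, n = 4) against 42.6 ± 40.9% (SD, n = 6), a difference of −33.5 percentage points that was not larger than the spread between ChIPs (exact two-sided permutation test, p = 0.181, adjusted p = 0.643). Here, as in the 4 comparisons below, 210 assignments allowed a p of 0.00476 at the least, and p-values were adjusted over 5 comparisons by the Benjamini-Hochberg method. The spread is that between proteins and thresholds, not between replicates.

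Over all peaks, summits were about as often within 1 kb of gene starts as the evenly spaced windows. The nearest transcript start was at most 1 kb from the summit in 15 Gm14326 peaks (2.89%, interval 1.76 to 4.71), 20 Gm14391 peaks (5.24%, 3.41 to 7.95), 7 Gm14393 peaks (5.79%, 2.83 to 11.5) and 7 Gm14418 peaks (5.30%, 2.59 to 10.5), against 4.24% of the evenly spaced windows. Within 200 bp there were 9 Gm14391 peaks (2.36%, interval 1.24 to 4.42), 3 Gm14326, 1 Gm14393 and 0 Gm14418 peaks, against 1.02%. Windows 5 kb from Gm14391 summits had 1.18% (interval 0.621 to 2.22), an interval that overlapped that of its peaks. Against the 6 others the means were 4.80 ± 1.30% and 8.24 ± 6.63% (SD, n = 4 and 6), which did not pass the exact permutation test (p = 0.386, adjusted p = 0.643). Of the 30 Gm14391 peaks with a score over 100, 4 were within 1 kb (13.3%, interval 5.31 to 29.7). Within 200 bp there were 3 of these (10%, interval 3.46 to 25.6). In Gm14326 the counts were 2 of 12 within 1 kb (16.7%, interval 4.7 to 44.8) and 0 within 200 bp. These few peaks were not tested.

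Most summits were intronic or intergenic. Introns held 40.1% of Gm14326, 42.1% of Gm14391, 47.1% of Gm14393 and 39.4% of Gm14418 summits, against 37.4% of the evenly spaced windows, and 58.4, 54.2, 52.1 and 59.1% lay between genes, against 59.0%. Coding exons held 2 Gm14326 summits (0.385%, interval 0.106 to 1.39), 5 Gm14391 summits (1.31%, 0.56 to 3.03) and 0 of the others. The evenly spaced windows had 1.49%. The median GC content was 42.5% in Gm14326, 43.0% in Gm14391, 41.0% in Gm14393 and 41.0% in Gm14418, against 41.5% of the evenly spaced windows. The mean of these medians was 41.9 ± 1.03% against 47.5 ± 9.13% in the 6 others (SD, n = 4 and 6), a difference that did not pass the exact permutation test (p = 0.310, adjusted p = 0.643).

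Tandem repeats, with a unit of at most 6 bases and at least 30 bp long, were in 3.28% of Gm14326 windows (interval 2.05 to 5.18), 3.14% of Gm14391 (1.81 to 5.41) and 4.13% of Gm14393 (1.78 to 9.31), against 3.52% of the evenly spaced windows. Gm14418 had 12 such windows of 132 (9.09%, interval 5.28 to 15.2), of which 8 had a unit of 2 bases and 3 a unit of 1 base. Windows 5 kb from its summits had 1.89% (interval 0.812 to 4.36). With a minimum of 20 bp, the share was 21.2% in Gm14418 (interval 15.1 to 28.9), 12.4% in Gm14393 (7.66 to 19.4) and 10.8% in Gm14326 (8.40 to 13.8), each above the 6.16% of the evenly spaced windows, and 7.59% in Gm14391 (5.34 to 10.7). Runs of A or T count among these repeats, and their part in the shares was not tested. At 30 bp the means, 4.91 ± 2.82% and 6.19 ± 10.2% (SD, n = 4 and 6), did not differ beyond the spread between ChIPs (exact permutation test, p = 0.971, adjusted p = 0.971).

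**Figure D5:**
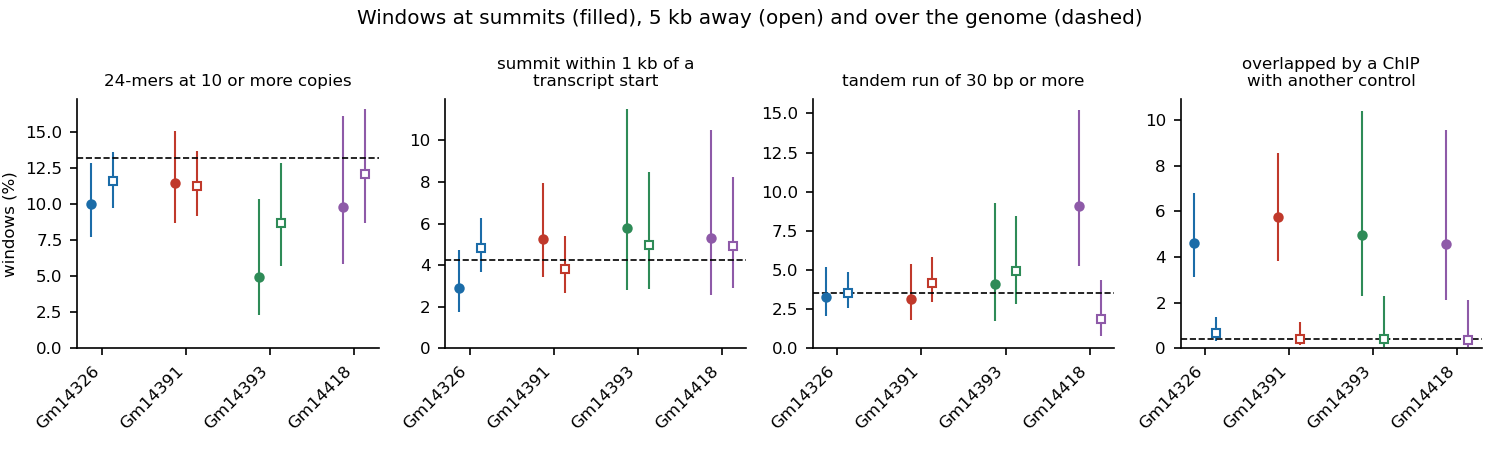
Share of 200 bp windows (vertical, percent) with multi-copy sequence, a transcript start within 1 kb, a tandem repeat, or an overlapping peak of a ChIP with another control, at the summits (filled), 5 kb away (open) and over evenly spaced windows (dashed), with 95% Wilson intervals. The intervals of the summits lie above the dashed line for overlap in all 4 ChIPs and for tandem repeats in Gm14418, and under it for multi-copy sequence in Gm14326 and Gm14393.

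A small share of the peaks lay where ChIPs with another control also had peaks. Overlap by at least 25% of the window with any of these 57 ChIPs was seen for 24 Gm14326 peaks (4.62%, interval 3.13 to 6.79), 22 Gm14391 peaks (5.76%, 3.83 to 8.57), 6 Gm14393 peaks (4.96%, 2.29 to 10.4) and 6 Gm14418 peaks (4.55%, 2.10 to 9.56). The evenly spaced windows had 0.403% and windows 5 kb from the summits 0.379 to 0.674%. The most frequent partner was Gm13251, with 9 Gm14326 peaks (1.73% of these and 0.273% of the 3300 Gm13251 peaks) and 10 Gm14391 peaks (2.62% and 0.303%). Gm13251 also had the highest share of runs of A, 93.0%. The 200 bp windows, which miss most runs, held a run in 33.3% of overlapped and 38.8% of other Gm14326 peaks. The values were 27.3 and 26.7% in Gm14391, 50 and 39.1% in Gm14393 and 0 and 48.4% in Gm14418. The part of the runs in the overlap was not tested. Against the 6 others the means were 4.97 ± 0.555% and 14.5 ± 23.1% (SD, n = 4 and 6), and the difference did not pass the exact permutation test (p = 0.671, adjusted p = 0.839).

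Counting only ChIPs with another control, the peaks with most partners had 2 each, and no Gm14418 peak had more than 1. For Gm14326 these were an intergenic peak at chr3:137389085-137389284 (Zfp457 and Zkscan17), one at chr1:189186097-189186296 (Gm13251 and Zfp709) and one in an intron of Daglb, a lipase gene (Gm13235 and Zfp600). For Gm14391 they were a peak 254 bp from the start of Ddx23, which encodes a spliceosomal helicase (Gm13251 and Zfp808), and peaks in introns of Ezr, the membrane linker ezrin (Gm13150 and Gm13152), and Aplp2 (Gm13235 and Zkscan17). For Gm14393 it was a peak in an intron of Tmem181a at chr17:6296517-6296716 (Gm13235 and Zfp933). Their scores ran from 51.65 to 95.29.

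No peak of the 4 ChIPs lay on the gene that encodes its own protein. On mm9 these genes are Gm14393 (ENSMUSG00000078905.2, chr2:174887050-174893282), Gm14391 (ENSMUSG00000078903.4, chr2:175016566-175032418), Gm14418 (ENSMUSG00000078867.3, chr2:177171829-177183025) and Gm14326 (ENSMUSG00000078862.3, chr2:177670698-177692002), all on the minus strand. The nearest peak of the same ChIP was 645075 bp away for Gm14326, 2367680 bp for Gm14393, 2497200 bp for Gm14391 and 7588804 bp for Gm14418. The stretch of chromosome 2 from 174887050 to 177813181, which holds 18 KRAB-ZFP genes named in the labels, had 1 Gm14326 peak and 0 of the others, where evenly spaced windows would put 0.106%. Chromosome 2 as a whole held 7.51% of Gm14326, 6.54% of Gm14391, 4.96% of Gm14393 and 7.58% of Gm14418 peaks, against 6.96% of the evenly spaced windows.

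The 5 gene lists had too few peaks for a comparison with the evenly spaced windows. Of 27 annotated genes for the KAP1 corepressor, H3K9 methylation and DNA methylation, 1 had a peak, Ehmt1, an H3K9 methyltransferase gene, in Gm14391 (0.262% of its windows, interval 0.0462 to 1.47, against 0.0625%). None of 19 pluripotency genes had one. Of 20 housekeeping genes 1 did, the heat-shock chaperone Hspa8, in Gm14391. Of 19 germline and antiviral genes Mael, a gene of the germline piRNA pathway, had 1 peak in Gm14326 and 1 in Gm14418, which share a control. Of 64 KRAB-ZFP genes Zfp599 had 1, in Gm14393. Each count covers the gene and 1000 bp on either side, and the evenly spaced windows gave 0.00391 to 0.0625% for the 5 lists.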

How the data were processed

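The authors aligned reads to mm9 with Bowtie2 and called peaks with MACS 1.4.2, per the labels and the study's methods. Their deposited table gives, for each 200 bp window around a summit, tag counts, the MACS score, the fold enrichment (a ratio of ChIP to control), the FDR in percent and other called positions (start, end, length and summit offset). No raw reads were used, and 244 peaks under a name that matches no sample were left out. Windows were compared with the NCBIM37 (mm9) sequence and GENCODE M1 using Python 3.11.15, numpy 2.4.6, scipy 1.17.1 and BLASTN 2.17.0. The 4 ChIPs were compared with the 6 others of the same control by an exact permutation test over ChIPs. Named items were the 5 highest-scoring peaks, 3 leading words, largest group, most shared peaks and own gene of each ChIP. The members, gene lists and comparisons were chosen with earlier results of these data known. Word, tandem repeat and matrix searches were tested on simulated data. Alternatives are given in the closing section.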

Additional observations from a re-analysis of the deposited data

Results flagged for a closer look

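In 12 sets of ChIP values (6 measures, each in the 4 and the 6 ChIPs of the Gm14296 control), 1 ChIP lay far from the rest of its set in 3 cases. Chance gives about 1 in 20 such sets. The share of windows with a tandem repeat was 9.09% in Gm14418, and the nearest of the other three was 4.13%. The same share was 26.7% in Gm14412, with the next of the 6 at 4.41%. The share of peaks overlapped by a ChIP with another control was 61.3% in Gm14410, with the next at 6.96%.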

How the results depend on the processing

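None of the 5 comparisons of the 4 with the 6 ChIPs passed the test under any alternative run, but some alternatives could not have passed. The least p that the exact permutation test allowed was 0.0119 with 1 of the 4 left out. It was 0.0286 without Gm14406, Gm14410 and Gm14412, and 0.0357 at a p under 1e-10 and an enrichment over 10. None of these values can pass once adjusted over 5 comparisons. The direction was kept except in 5 cases. The difference in multi-copy share was 2.95 percentage points without Gm14406, Gm14410 and Gm14412, an alternative added after their values were seen. The difference near transcript starts was 6.76 at a p under 1e-10 and an enrichment over 10 for all, which left peaks in Gm14326 and Gm14391 alone and gave no difference in GC. The tandem repeat difference was 4.87 with runs of at least 20 bp, 2.82 without Gm14412 and 1.5 without the 3 ChIPs above; the cause was not tested. Leaving out each ChIP in turn gave −41.4 to −23.7 for multi-copy share, −4.98 to −1.20 near starts, −7.23 to −2.52 for GC, −12.4 to −0.147 for overlap and −2.68 to 2.82 for tandem repeats. The overlap difference was −0.147 without Gm14410. A p under 1e-10 left 12 Gm14326, 30 Gm14391, 0 Gm14393 and 0 Gm14418 peaks at an enrichment over 10, and 1, 11, 0 and 0 at one over 20. An enrichment over 20 with the labelled p left 1, 12, 3 and 0. The leading word was in 2.94% (6 bases) and 2.52% (10 bases) of held-out Gm14326 windows, and in 16.3% of Gm14391 windows with 10 bases, where it was part of a run of A. Runs of at least 12 A lay 5′ of 71.5% of Gm14326, 65.2% of Gm14391, 81.8% of Gm14393 and 78.0% of Gm14418 peaks. Windows held runs of at least 12 in 26.2% of Gm14326, 20.2% of Gm14391 and 34.1% of Gm14418, and runs of at least 15 in 17.5%, 12.6% and 25%, and in 22.3% of Gm14393. A matrix of 15 bases matched 10.5% of held-out Gm14391 windows. No paired analysis was possible because each protein has 1 sample and the labels give no replicate numbers. With 121 and 132 peaks, differences of a few percentage points could not be seen for Gm14393 and Gm14418.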

Other observations

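The matrix fitted to Gm14418, which matched 9 of the 20 peaks it was fitted to and 1 of 57 held-out windows, matched 95 of 142 windows of Gm14410 (66.9%, interval 58.8 to 74.1) and 0.887% of the evenly spaced windows. The 2 ChIPs share a control, and the value was noticed after all matrices had been run on all 10 ChIPs. In Gm14410, 80.3% of windows were multi-copy and the median over its windows was 316.5 copies. Whether the 95 matches lie in copies of 1 sequence was not tested, and the interval treats them as independent.

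The X chromosome held 3.85% of Gm14326 peaks (interval 2.51 to 5.88), 3.66% of Gm14391 (2.20 to 6.06), 5.79% of Gm14393 (2.83 to 11.5) and 5.30% of Gm14418 (2.59 to 10.5), against 6.32% of the evenly spaced windows.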
